A study of Mus musculus with 18 samples.

Results

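Carriers for amino acids, glucose, lactate and related small solutes were followed in regulatory T cells (Tregs), the Foxp3+ CD4+ T cells that keep immune responses in check. The genes were the rows deposited as protein_coding whose names placed them in the solute carrier families Slc1, Slc2, Slc3, Slc5, Slc6, Slc7, Slc16, Slc36, Slc38 and Slc43, which gave 91 of the 46078 rows of each count table. One of the 91, Slc7a6os, shares its name with a carrier and is not one, but it is included in the counts of carriers below. Of these 91 genes, 37 had enough counts to be tested against spleen and 2 more, Slc7a4 and Slc7a8, were tested only in a fit to all 18 libraries. A further 34 had some counts, at most 88 over the 18 libraries together, and 18 had none. The rule leaves out 15 rows of the same families that carry another biotype in the deposited tables, among them Slc1a5.

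Tregs were sorted from male Foxp3(DTR/GFP) mice aged 10 weeks, in which Foxp3+ cells carry a diphtheria toxin receptor and a green fluorescent protein. Gene expression was read out by bulk RNA sequencing. The injured tissues, each with 3 libraries and taken on day 7, were bone with a cranial defect, muscle with a volumetric loss of the quadriceps, skin with punch wounds, and heart after infarction by ligation of the left coronary artery. They were set against Tregs of healthy, uninjured spleen, with 6 libraries. Cells of 3 mice went into each tissue library, and for spleen the labels do not mention pooling. Tissue and injury changed together, so that a difference from spleen cannot be told apart into one or the other. In bulk RNA, more cells with a transcript and more transcript per cell cannot be told apart either.

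Total counts ran from 8375212 to 22635760 in the 12 tissue libraries and from 5970346 to 15756884 in spleen. Library names fall into an Endo style (all of skin, 1 heart library, spleen replicates 1 to 3) and a Tregs style (all of bone and muscle, 2 heart libraries, spleen replicates 4 to 6), and the style was a term of every fit. Folds of bone and muscle therefore rest on spleen replicates 4 to 6 and folds of skin on replicates 1 to 3. The summed level of 6 Treg and T cell markers was 5075 to 7838 CPM (a gene's counts relative to the library total, scaled by TMM) in the tissues, against 3345 to 3926 CPM in spleen. Macrophage markers, 6 genes, summed to 2.77 to 52.1 CPM in the tissues, where the highest value was a heart library, against 19.1 to 25.7 CPM in spleen. Fibroblast markers, 5 genes, summed to 1.96 to 105 CPM in the tissues with the highest value in skin, against 0 to 11.4 CPM in spleen. B cell markers, 6 genes, summed to 46.5 to 66.1 CPM in bone, 5.96 to 11.3 CPM in muscle, 9.57 to 11.1 CPM in skin and 16.7 to 50.4 CPM in heart, against 33.6 to 86.5 CPM in spleen. Ribosomal and miscellaneous RNA took 2.15% to 6.47% of counts in the tissues, against 5.40% to 9.03% in spleen. Skeletal muscle markers reached 69.4 CPM in a muscle library, keratinocyte markers 6.64 CPM in skin and heart muscle markers 4.49 CPM in heart, and of 4 osteoblast genes Bglap, Sp7 and Ibsp had no count in any library. The fourth, Runx2, which T cells can also express, had 108 to 236 CPM in the tissues, against 25.7 to 56.2 CPM in spleen, and rose in all 4, with the smallest log2 fold change, 1.45, in bone. The part of these values in the results was not tested.

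Lymphocytes take up glucose through facilitative Slc2 carriers and release the lactate made by glycolysis through proton-linked Slc16 carriers. Large neutral amino acids enter through exchangers of a light chain (Slc7a5 and its relatives) and the shared heavy chain Slc3a2, also known as CD98, which brings the light chain to the cell surface. Sodium-coupled Slc38 and Slc1 carriers bring in glutamine and small neutral amino acids, and the amino acids taken up are sensed at the lysosome by mTORC1.

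In each of the tissues more of these genes were above spleen than below it. In muscle, 13 of the 37 tested rose and 1 fell in edgeR's quasi-likelihood test at FDR 0.05, where 14.2% of all genes tested rose and 11.3% fell. In bone 9 of 37 rose and none fell, against 8.48% of all genes higher and 6.32% lower. In skin 10 of 37 rose and 1 fell, beside 15% and 12.8% of all genes. In heart 12 of 33 rose and 1 fell, beside 11.8% and 8.46% of all genes. DESeq2 also called 0 lower in bone, and 12 of the 37 passed an unadjusted p of 0.05 there in edgeR. The median log2 fold change of the tested carriers was 0.38 for bone, 0.40 for muscle, 0.40 for skin and 0.38 for heart, beside 0.01, -0.01, -0.07 and -0.03 for all genes in the same order. Summed over all 91 genes, the level was 1786 to 1877 CPM in bone, 1972 to 2076 CPM in muscle, 1969 to 2034 CPM in skin and 1733 to 2250 CPM in heart, against 1248 to 1404 CPM in spleen, with no overlap between any tissue and spleen.

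Slc16a3, Slc16a6, Slc2a1, Slc36a1, Slc38a10 and Slc43a3 rose in all 4 tissues. Slc3a2, Slc43a2 and Slc6a6 rose in 3, Slc16a1 and Slc7a1 in 2, and Slc1a4, Slc2a3, Slc2a9, Slc36a3, Slc36a4, Slc38a2 and Slc5a3 in 1. Slc16a5 fell in 3. The other 18 of the 37 passed the test in none, and no gene rose in one tissue and fell in another. The folds of bone and muscle share spleen replicates 4 to 6, and heart, with libraries of both styles, shares spleen libraries with every other tissue, so that these comparisons are not independent.

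**Figure D1:**
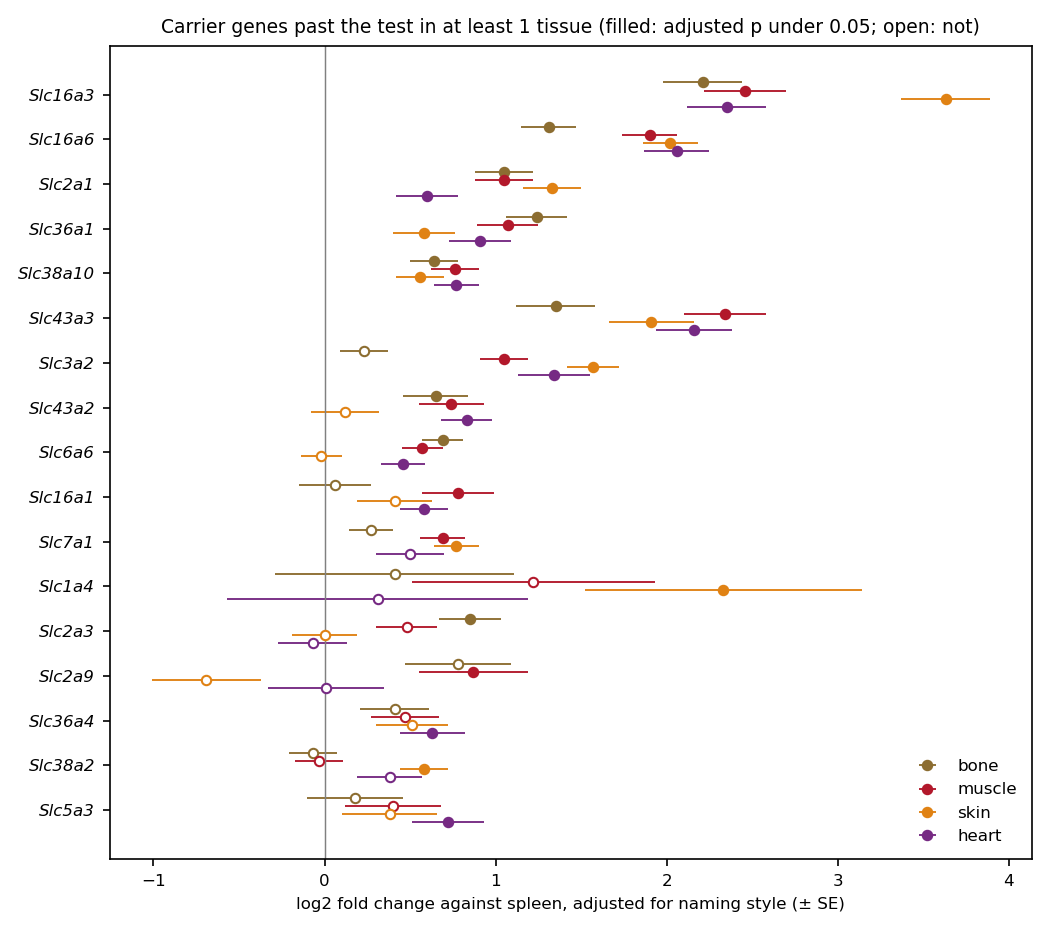
Log2 fold change against spleen (x axis, ± SE, adjusted for naming style) of 17 carrier genes past the test in at least 1 tissue, in bone, muscle, skin and heart; filled points passed FDR 0.05 and open points did not. Slc16a3 lies farthest to the right, from 2.21 in bone to 3.63 in skin; Slc16a5 and Slc36a3, which have few counts, are not drawn.

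The promoters of 5 genes that rose in at least 3 tissues are shown. They were picked because each holds the letters ACGTG, the core of the element bound by hypoxia-inducible factors. The presence of ACGTG in all 5 is thus no result, and whether these factors act on the genes was not tested. Each window runs from 250 bases before to 50 bases after a gene's RefSeq start in GRCm38.p6, read 5′ to 3′ on the gene's strand, and 67 of the 91 genes had one. Capitals mark matches on either strand, shown in the direction printed. The letters searched were ACGTG itself, then CACGTG, the E-box, which holds it, then TGANTCA, bound by AP-1 factors, and last TGATGNAA, a composite site of Atf4 with its partners.
Slc16a3, chr11:120948817-120949116, plus strand: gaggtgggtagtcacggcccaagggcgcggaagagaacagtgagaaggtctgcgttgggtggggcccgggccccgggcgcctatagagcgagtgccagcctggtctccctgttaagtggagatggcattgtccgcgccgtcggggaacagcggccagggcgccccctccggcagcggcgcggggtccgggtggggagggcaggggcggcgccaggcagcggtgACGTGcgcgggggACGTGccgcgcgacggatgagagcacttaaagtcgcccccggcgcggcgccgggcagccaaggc
Slc2a1, chr4:119108495-119108794, plus strand: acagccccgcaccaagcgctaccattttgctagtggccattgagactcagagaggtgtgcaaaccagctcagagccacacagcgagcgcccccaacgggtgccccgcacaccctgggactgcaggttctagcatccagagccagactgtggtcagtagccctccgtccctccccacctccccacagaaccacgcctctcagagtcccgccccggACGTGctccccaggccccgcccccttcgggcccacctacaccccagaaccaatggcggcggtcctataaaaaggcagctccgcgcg
Slc36a1, chr11:55204090-55204389, plus strand: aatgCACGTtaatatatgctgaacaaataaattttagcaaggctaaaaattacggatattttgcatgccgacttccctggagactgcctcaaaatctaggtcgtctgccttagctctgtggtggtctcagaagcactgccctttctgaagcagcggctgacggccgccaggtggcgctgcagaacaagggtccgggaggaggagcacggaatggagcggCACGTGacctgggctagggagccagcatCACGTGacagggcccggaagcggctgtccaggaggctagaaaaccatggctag
Slc38a10, chr11:120151302-120151601, minus strand: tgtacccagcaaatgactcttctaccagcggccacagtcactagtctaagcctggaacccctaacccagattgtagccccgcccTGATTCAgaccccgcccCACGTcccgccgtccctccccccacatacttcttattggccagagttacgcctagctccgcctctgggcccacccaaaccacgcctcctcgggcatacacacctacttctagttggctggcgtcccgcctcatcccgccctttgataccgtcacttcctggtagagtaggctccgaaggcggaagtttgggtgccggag
Slc3a2, chr19:8713848-8714147, minus strand: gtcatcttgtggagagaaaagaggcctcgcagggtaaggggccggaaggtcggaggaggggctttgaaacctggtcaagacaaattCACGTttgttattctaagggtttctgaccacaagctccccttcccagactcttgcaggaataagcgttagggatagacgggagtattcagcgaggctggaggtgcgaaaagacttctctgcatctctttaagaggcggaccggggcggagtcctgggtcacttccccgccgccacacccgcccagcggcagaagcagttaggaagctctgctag
Slc16a3 has ACGTG at 2 places, Slc2a1 and Slc3a2 at 1 each, and Slc36a1 has 2 copies of CACGTG and 1 further ACGTG. The window printed for Slc3a2 lies inside the gene's span in GENCODE (chr19:8706882-8723369) and not at its outer end. Slc38a10 has 1 ACGTG and 1 TGANTCA. Neither of the 2 windows of Slc43a2, which also rose in 3 tissues, holds any of these letters. Slc16a6, Slc43a3 and Slc6a6, the other genes that rose in at least 3 tissues, were not among the 67 genes with a window and were not searched. Of the 16 windows of carriers that rose in at least 1 tissue 37.5% hold ACGTG, of the 36 windows of tested carriers 33.3%, and of all 32851 windows 19.6%. For CACGTG the shares are 12.5%, 11.1% and 7.15%, for TGANTCA 18.8%, 13.9% and 7.81%, and for TGATGNAA 6.25%, 8.33% and 3.97%. A match is a description of letters and not a site in use.

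Among the 4 lactate and pyruvate carriers, Slc16a3 had the largest differences. Slc16a3, also called MCT4, is the lactate exporter typical of strongly glycolytic cells, and lies at chr11:120948480-120960868 (GRCm38). It had 54.0, 35.2 and 43.8 CPM in bone, 67.4, 44.4 and 47.4 CPM in muscle, 108, 106 and 96.5 CPM in skin, and 50.1, 48.1 and 39.3 CPM in heart. In spleen it ran from 6.03 CPM to 11.5 CPM with a median of 9.40 CPM. Every tissue library was above every spleen library. Every skin library was above all of the other tissues, although skin against muscle did not pass in a direct test. The log2 fold change was 2.21 ± 0.23 for bone, 2.46 ± 0.24 for muscle, 3.63 ± 0.26 for skin and 2.35 ± 0.23 for heart (± SE). These are 4.61-fold, 5.52-fold, 12.4-fold and 5.11-fold, with edgeR adjusted p of 4.8e-07, 4.5e-08, 1.9e-10 and 7.3e-06, and all 4 calls held under every alternative analysis.

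Slc16a1 (MCT1), which carries lactate and pyruvate in either direction, differed less. It had 52.4, 33.3 and 34.6 CPM in bone, 90.5, 54.1 and 54.5 CPM in muscle, 52.8, 81.0 and 77.1 CPM in skin, 80.5, 53.1 and 59.3 CPM in heart, and 36 to 56.3 CPM in spleen with a median of 43 CPM. Each tissue overlapped spleen. It rose in muscle (log2 0.78 ± 0.21, adjusted p = 0.0089) and heart (0.58 ± 0.14, adjusted p = 0.0085), while bone had 0.06 ± 0.21 (adjusted p = 0.90) and skin 0.41 ± 0.22 (adjusted p = 0.16). Without muscle replicate 1 the muscle value was 0.50 (adjusted p = 0.090), and without heart replicate 1 the heart value was 0.56 (adjusted p = 0.051). With no naming style in the model the adjusted p was 0.050 in muscle and 0.071 in heart. The replicate number as a block in place of the style gave 0.32 in muscle (adjusted p = 0.32) and 0.28 in heart (adjusted p = 0.37).

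Set per length of exon, Slc16a3 made up a larger part of the sum of Slc16a3 and Slc16a1 in the tissues. Its share was 46.2% to 51.3% for bone, 38.3% to 42.0% for muscle, 51.0% to 62.9% for skin and 34.1% to 43% for heart, against 10.2% to 20.8% in spleen. No tissue library overlapped spleen in this share, which was not tested. Slc16a7 (MCT2) was tested in bone, muscle and skin and did not pass, and Slc16a8 had too few counts to be tested.

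**Figure D2:**
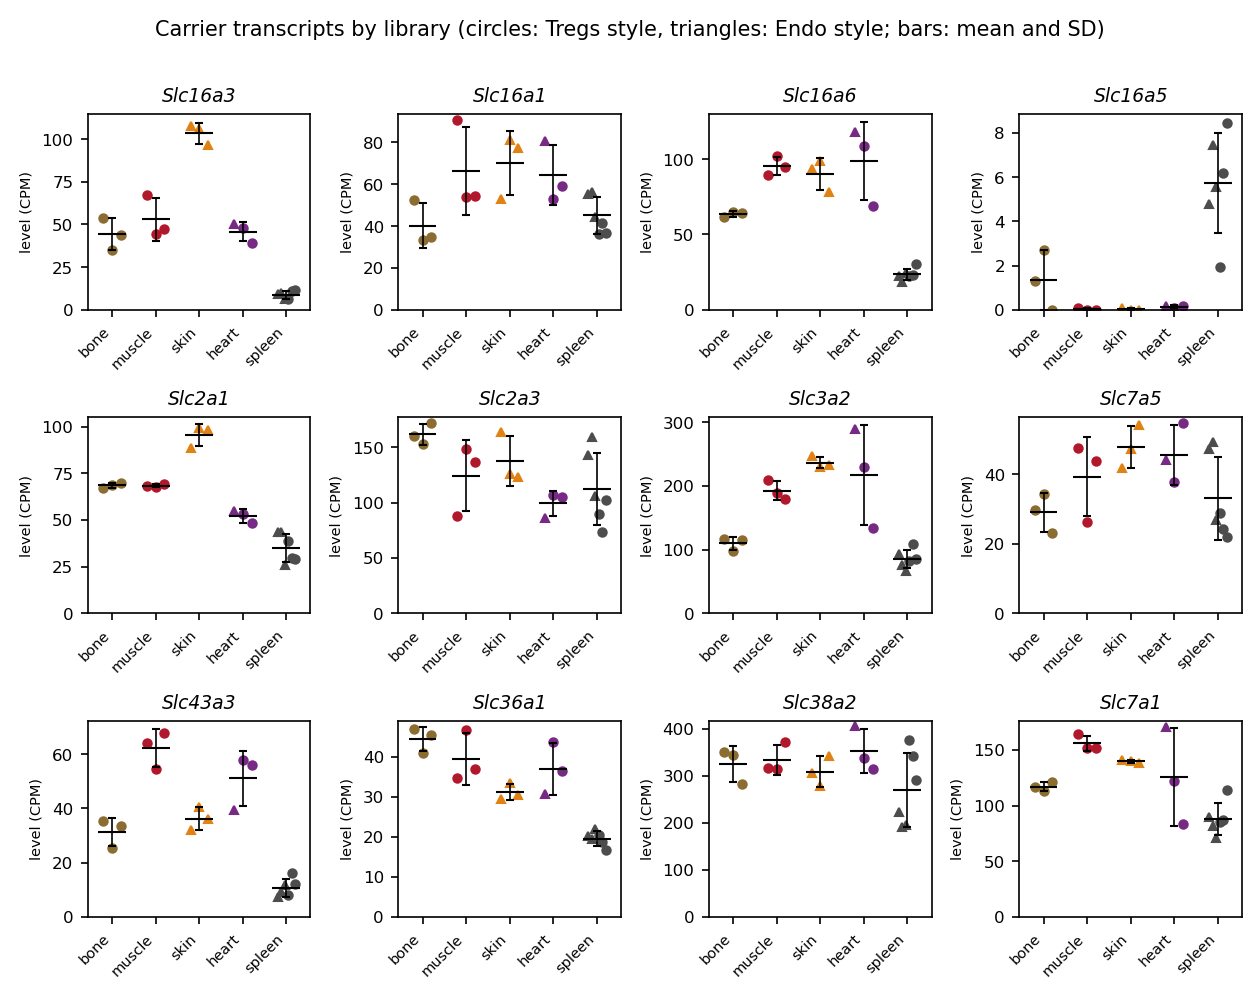
Level in CPM (y axes, linear, from 0) of 12 carriers in each library of bone, muscle, skin, heart and spleen; points are libraries, circles for the Tregs and triangles for the Endo naming style, and bars give mean and SD. Slc16a3 lies at 35.2 to 108 CPM in the tissues, above the highest spleen library at 11.5 CPM, whereas Slc16a5 lies at 0 to 2.71 CPM in the tissues, against 1.94 to 8.44 CPM in spleen.

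Among the other Slc16 carriers Slc16a6 and Slc16a5 moved in opposite directions. Slc16a6 (MCT7), shown in zebrafish liver to export ketone bodies, had 61.3, 65.1 and 64.3 CPM in bone, 89.7, 102 and 94.5 CPM in muscle, 93.3, 98.8 and 78.0 CPM in skin, and 118, 109 and 69.0 CPM in heart. Spleen held 18.4 to 30.2 CPM with a median of 22.9 CPM, below every tissue library. The log2 fold change was 1.31 ± 0.16 for bone, 1.90 ± 0.16 for muscle, 2.02 ± 0.16 for skin and 2.06 ± 0.19 for heart, with edgeR adjusted p of 2.4e-06, 5.8e-09, 2.2e-09 and 3.7e-06, and these calls held under every alternative. Slc16a6 (chr11:109450855-109473598) shares 1052 exonic bases with Amz2 on the other strand, and whether counting used strand is not given in the sources used here, so that its reads are uncertain. Amz2 itself differed from spleen by log2 0.16 for bone, 0.50 for muscle, 0.23 for skin and 0.49 for heart, and passed the test only in muscle (adjusted p = 0.029), with adjusted p of 0.60, 0.35 and 0.061 in bone, skin and heart.

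Slc16a5 (MCT6), whose human protein carries drugs such as bumetanide, was the only one of the 37 tested genes that fell. It had 1.29, 2.71 and 0 CPM in bone, at most 0.0842 CPM in muscle, at most 0.0923 CPM in skin and 0.0787 to 0.188 CPM in heart, against 1.94 to 8.44 CPM in spleen with a median of 5.88 CPM. Muscle and skin held 1 count each over their 3 libraries and heart 5, against 361 counts over the 6 spleen libraries. Scaled for depth, the level was 0.479% of that of spleen in muscle (95% exact interval 0.0121% to 2.69%), 0.648% in skin (0.0164% to 3.63%) and 2.47% in heart (0.798% to 5.82%), where the intervals cover counting error only. The adjusted p was 2.0e-04 in muscle, 2.6e-04 in skin and 1.1e-04 in heart, and the 3 calls held under every alternative. In bone, where 99 counts came from 2 of 3 libraries, it did not pass (log2 -2.02 ± 0.86, adjusted p = 0.12). It shares 104 bases with Gm11695 on the other strand. Of the B cell markers 6 of 6 were lower than spleen in muscle and in skin, and 1 of 6 in bone and in heart. Of all genes 11.3% fell in muscle, 12.8% in skin, 6.32% in bone and 8.46% in heart. The median log2 fold change of the markers was -5.14 in muscle, -3.27 in skin, -0.35 in bone and -0.70 in heart. Their part in the level of Slc16a5 was not tested.

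Of the 10 hexose carriers 4 were tested, and Slc2a1 rose in every tissue. Slc2a1 (GLUT1, chr4:119108711-119137983) is the glucose carrier induced when T cells are activated. It had 67.2, 68.5 and 69.8 CPM in bone, 68.3, 67.4 and 69.1 CPM in muscle, 88.5, 99.1 and 98.2 CPM in skin and 55.0, 53.1 and 48.2 CPM in heart, against 25.9 to 43.4 CPM in spleen with a median of 34.1 CPM. No tissue overlapped spleen, skin was highest, and all bone and muscle libraries lay between 67.2 and 69.8 CPM. Skin against bone and skin against muscle did not pass in direct tests. The log2 fold change was 1.05 ± 0.17 for bone, 1.05 ± 0.17 for muscle, 1.33 ± 0.17 for skin and 0.60 ± 0.18 for heart, with edgeR adjusted p of 9.7e-05, 6.0e-05, 2.9e-06 and 0.032. The calls in bone, muscle and skin held under every alternative. The heart call did not: without heart replicate 1 the value was 0.64 (adjusted p = 0.085), without heart replicate 2 it was 0.56 (0.11), without spleen replicate 5 it was 0.57 (0.072), and without spleen replicate 6 it was 0.56 (0.068). With the replicate block in place of the style it was 0.50 (0.13).

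Slc2a3 (GLUT3), a high-affinity glucose carrier, had 160, 153 and 172 CPM in bone, 88.1, 148 and 137 CPM in muscle, 164, 126 and 123 CPM in skin, 86.5, 107 and 105 CPM in heart, and 73.5 to 159 CPM in spleen with a median of 104 CPM. All tissues overlapped spleen, whose 3 Endo libraries (106 to 159 CPM) lay above its 3 Tregs libraries (73.5 to 102 CPM). It rose in bone (log2 0.85 ± 0.18, adjusted p = 0.0023), which rests on the Tregs libraries. With no naming style in the model the bone value was 0.51 (adjusted p = 0.091). Muscle had 0.48 ± 0.18 (adjusted p = 0.062), skin 0.00 ± 0.19 and heart -0.07 ± 0.20. The share of Slc2a1 in the sum of Slc2a1 and Slc2a3, per length, was 45.5% to 48.0% for bone, 48.5% to 61.5% for muscle, 52.7% to 62.2% for skin and 48.7% to 56.8% for heart, against 33.6% to 47.1% in spleen, so that bone overlapped spleen and the others did not. Slc2a9, a urate carrier, rose in muscle alone (0.87 ± 0.32, adjusted p = 0.046), where 11 of 19 alternatives ended the call with adjusted p of 0.052 to 0.73, and 1 of these, the replicate block, turned it to -0.30. Among the 11 were muscle replicates 1 (0.056) and 2 (0.20) and spleen replicates 1 (0.053), 2 (0.052), 4 (0.11) and 5 (0.18), each left out alone. Slc2a6, a carrier of lysosomal membranes, had 0.72 ± 0.57 for bone, 1.29 ± 0.58 for muscle, 0.59 ± 0.60 for skin and 0.26 ± 0.72 for heart and passed nowhere.

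The heavy chain Slc3a2 rose in muscle, skin and heart while its light chains tested among the 91 did not pass. Slc3a2 (chr19:8706882-8723369) had 116, 97.7 and 115 CPM in bone, 209, 188 and 180 CPM in muscle, 246, 230 and 233 CPM in skin and 289, 229 and 133 CPM in heart, against 66.0 to 109 CPM in spleen with a median of 83.5 CPM. Muscle, skin and heart lay above all spleen libraries, and bone overlapped them. The log2 fold change was 1.05 ± 0.14 in muscle (edgeR adjusted p = 6.8e-06), 1.57 ± 0.15 in skin (1.7e-08) and 1.34 ± 0.21 in heart (4.5e-04), and all 3 held under every alternative. In bone it was 0.23 ± 0.14 (adjusted p = 0.31). The other heavy chain, Slc3a1, which serves cystine and cationic amino acid uptake in kidney, passed in no tissue.

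Slc7a5 (LAT1) is the light chain that brings leucine and other large neutral amino acids into activated T cells. It had 23.2 to 34.3 CPM in bone, 26.4 to 47.6 CPM in muscle, 41.9 to 54.1 CPM in skin and 37.8 to 54.7 CPM in heart, against 22.1 to 49.4 CPM in spleen, and each tissue overlapped spleen. Its log2 fold change was 0.19 ± 0.23 for bone, 0.62 ± 0.23 for muscle, 0.20 ± 0.24 for skin and 0.59 ± 0.23 for heart, with edgeR adjusted p of 0.66, 0.054, 0.58 and 0.087. The 95% interval in muscle, 0.16 to 1.08, holds the size seen for Slc3a2 there, so that a missed threshold does not show the light chain to be level. Slc7a6 (y+LAT2), which exchanges cationic for neutral amino acids, had a range of 38.2 to 54.9 CPM in muscle, with 48.1 to 61.1 CPM in heart, against 33.8 to 43.5 CPM in spleen, and heart came closest to the threshold (0.43 ± 0.15, adjusted p = 0.052). Slc7a7, the third light chain tested, passed nowhere. Slc7a11, the cystine and glutamate exchanger, averaged 0 CPM in bone, 0.0276 CPM in muscle, 0.174 CPM in skin and 0.419 CPM in heart, against 0.0782 CPM in spleen, with 29 counts over all libraries, too few to be tested.

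Slc7a1 (CAT1), the arginine and lysine carrier and the only cationic carrier tested against spleen, had 117, 113 and 121 CPM in bone, 164, 152 and 152 CPM in muscle, 141, 140 and 138 CPM in skin and 171, 122 and 83.7 CPM in heart. Spleen had 71.0 to 114 CPM with a median of 86.1 CPM, below every muscle and skin library and overlapping bone and heart. Slc7a1 rose in muscle (log2 0.69 ± 0.13, edgeR adjusted p = 4.2e-04) and skin (0.77 ± 0.13, adjusted p = 1.2e-04), and both calls held under every alternative. Bone had 0.27 ± 0.13 (adjusted p = 0.18), and heart, with the widest spread between libraries, 0.50 ± 0.20 (adjusted p = 0.092).

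The neutral amino acid exchangers are Slc1a4 (ASCT1) and Slc1a5 (ASCT2), of which Slc1a5 is the main glutamine carrier of activated T cells. Slc1a5 is deposited as retained_intron and is thus not among the 91, although GENCODE lists it as protein_coding. It had 124, 125 and 127 CPM in bone, 157, 167 and 140 CPM in muscle, 197, 149 and 132 CPM in skin and 156, 128 and 135 CPM in heart, against 74.9 to 103 CPM in spleen with a median of 91.4 CPM, and no tissue overlapped spleen. It rose in bone (0.62 ± 0.14, edgeR adjusted p = 0.0027), muscle (0.93 ± 0.14, 2.3e-05), skin (0.64 ± 0.14, 0.0011) and heart (0.68 ± 0.12, 0.0012). The heart call was lost with the replicate block in place of the style (0.46, adjusted p = 0.11), and the others held under every alternative. Slc1a4 was far lower, at 1.41 to 2.71 CPM in bone, 1.81 to 4.88 CPM in muscle, 2.03 to 3.45 CPM in skin and 0.236 to 1.89 CPM in heart, against 0.422 to 3.23 CPM in spleen. It rose in skin (2.33 ± 0.81, adjusted p = 0.033), where 8 of 19 alternatives ended the call, among them leaving out skin replicate 1 (adjusted p = 0.071) or 3 (0.081) and spleen replicate 1 (0.071), 2 (0.092) or 3 (0.090). In muscle it had 1.22 (adjusted p = 0.23), and 2.44 (adjusted p = 0.031) without spleen replicate 5, its highest spleen library. The 5 glutamate carriers of the Slc1 family had too few counts to be tested.

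Of the 11 sodium-coupled Slc38 carriers 7 were tested, and Slc38a10 rose in every tissue. Slc38a10 (chr11:120103960-120151346), one of the less studied members, had 89.6, 94.5 and 90.0 CPM in bone, 97.4, 107 and 92.9 CPM in muscle, 108, 88.3 and 82.9 CPM in skin and 118, 89.1 and 98.5 CPM in heart, against 50.3 to 66.1 CPM in spleen with a median of 60.5 CPM. All tissue libraries lay above spleen. Its log2 fold change was 0.64 ± 0.14 for bone, 0.76 ± 0.14 for muscle, 0.56 ± 0.14 for skin and 0.77 ± 0.13 for heart, with edgeR adjusted p of 0.0023, 2.5e-04, 0.0043 and 9.3e-04, held under every alternative. It shares 367 exonic bases with Gm11769 on the other strand, which averaged 0.591 to 2.66 CPM in the tissues and 1.63 CPM in spleen.

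Slc38a2 (SNAT2), a carrier of small neutral amino acids that cells raise when these are scarce, had 282 to 351 CPM in bone, 315 to 371 CPM in muscle, 278 to 343 CPM in skin and 315 to 406 CPM in heart. In spleen the 3 Endo libraries held 191 to 223 CPM and the 3 Tregs libraries 291 to 377 CPM, with no overlap between the styles. It rose in skin, which is set against the Endo libraries (log2 0.58 ± 0.14, adjusted p = 0.0027), and not in bone (-0.07 ± 0.14) or muscle (-0.03 ± 0.14), which are set against the Tregs libraries, nor in heart (0.38 ± 0.19, adjusted p = 0.17). With no naming style in the model the skin value was 0.17 (adjusted p = 0.52). Slc38a1 (SNAT1), another glutamine carrier, stood at 177 to 180 CPM in bone, 158 to 198 CPM in muscle, 137 to 175 CPM in skin and 114 to 177 CPM in heart, against 134 to 164 CPM in spleen, and passed nowhere, with log2 fold changes of -0.06 to 0.32. Slc38a9, which reports lysosomal arginine to mTORC1, had log2 fold changes of -0.46 to 0.38 and Slc38a7, a lysosomal glutamine exporter, of -0.69 to 0.47, and neither passed.

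Of the proton-coupled carriers, Slc36a1 (PAT1, chr11:55204350-55236330), which moves small amino acids out of lysosomes, rose in every tissue. It had 46.9, 41.1 and 45.4 CPM in bone, 34.7, 46.8 and 37.0 CPM in muscle, 29.5, 33.4 and 30.6 CPM in skin and 30.8, 43.7 and 36.4 CPM in heart, against 16.7 to 22.0 CPM in spleen with a median of 19.8 CPM. No tissue overlapped spleen. The log2 fold change was 1.24 ± 0.18 for bone, 1.07 ± 0.18 for muscle, 0.58 ± 0.18 for skin and 0.91 ± 0.18 for heart, with edgeR adjusted p of 2.1e-05, 7.2e-05, 0.018 and 0.0028. The skin call was lost without skin replicate 2 (0.52, adjusted p = 0.081), without spleen replicate 2 (0.58, adjusted p = 0.051) and without spleen replicates 1 and 2 (0.52, adjusted p = 0.22), while the others held throughout. Slc36a4 (PAT4), a carrier of proline and tryptophan, rose in heart (0.63 ± 0.19, adjusted p = 0.030), and had 0.41 to 0.51 in the other tissues without passing. Its heart call was lost without heart replicate 1 (adjusted p = 0.20) or 3 (0.074) and without spleen replicate 1 (0.053), 3 (0.053) or 4 (0.062). That call was also lost without spleen replicates 1 and 2 together (0.060) and with the replicate block in place of the style (0.10). Slc36a3, at 0 to 3.69 CPM in the tissues and 0.0670 to 0.520 CPM in spleen, rose in muscle (adjusted p = 0.046), and 12 of 19 alternatives ended that call. They include leaving out muscle replicate 1 (0.13) or 2 (0.11) or any spleen library but replicate 3 (0.056 to 0.12).

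Both moving members of the Slc43 family rose in at least 3 tissues, although only one of them carries amino acids. Slc43a3 (chr2:84936579-84958509) takes up purine nucleobases such as adenine. It had 35.2, 25.3 and 33.5 CPM in bone, 64.2, 54.5 and 68.0 CPM in muscle, 31.9, 40.4 and 36.2 CPM in skin and 39.3, 58.0 and 56.0 CPM in heart, against 7.28 to 16.1 CPM in spleen with a median of 10.5 CPM. No tissue overlapped spleen. It was 2.54-fold higher for bone (log2 1.35 ± 0.23), 5.05-fold for muscle (2.34 ± 0.24), 3.76-fold for skin (1.91 ± 0.25) and 4.46-fold for heart (2.16 ± 0.22), with edgeR adjusted p of 1.9e-04, 9.6e-08, 2.3e-06 and 1.1e-05, held under every alternative.

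Slc43a2 (LAT4), which lets large neutral amino acids pass down their gradient, had 99.9, 100 and 90.0 CPM in bone, 61.5, 123 and 123 CPM in muscle, 95.2, 78.2 and 82.2 CPM in skin and 111, 132 and 113 CPM in heart, against 56.8 to 90.9 CPM in spleen. Heart alone lay wholly above spleen. It rose in bone (0.65 ± 0.19, edgeR adjusted p = 0.024), muscle (0.74 ± 0.19, adjusted p = 0.0062) and heart (0.83 ± 0.15, adjusted p = 0.0015) and had 0.12 ± 0.20 in skin. The bone call was lost without bone replicate 1 (adjusted p = 0.075), bone replicate b (0.072), spleen replicate 4 (0.075) or spleen replicate 5 (0.060). It was also lost with no naming style in the model (0.47, adjusted p = 0.081). With the replicate number as a block in place of the style, the muscle value was 0.37 (adjusted p = 0.30) and the heart value 0.61 (adjusted p = 0.051). Slc43a2 shares 922 exonic bases with Gm45606 on the other strand. Slc43a1 (LAT3) passed nowhere, with values from -1.46 ± 0.65 in muscle to 0.36 ± 0.40 in heart.

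Slc6a6, the taurine carrier, was the only tested one of the 14 Slc6 genes. It had 152, 134 and 155 CPM in bone, 136, 127 and 141 CPM in muscle, 97.9, 101 and 96.0 CPM in skin and 120, 122 and 144 CPM in heart, against 82.8 to 103 CPM in spleen. Bone, muscle and heart lay above all spleen libraries, whereas skin lay among them. It rose in bone (log2 0.69 ± 0.12, edgeR adjusted p = 2.4e-04), muscle (0.57 ± 0.12, adjusted p = 0.0012) and heart (0.46 ± 0.13, adjusted p = 0.025), with -0.02 ± 0.12 in skin. The heart call was lost without heart replicate 3 (0.37, adjusted p = 0.073) or spleen replicate 5 (0.42, adjusted p = 0.061). That call was also lost with no filter (0.46, adjusted p = 0.058) and with the replicate block in place of the style (0.38, adjusted p = 0.19). Of the 13 Slc5 genes 3 were tested, and Slc5a3, the myo-inositol carrier, rose in heart alone (0.72 ± 0.21, adjusted p = 0.030), a call lost without heart replicate 1 (0.54, adjusted p = 0.20) or 2 (0.64, 0.12) and without spleen replicate 5 (0.75, 0.053) or 6 (0.70, 0.061). The replicate block in place of the style also ended this call (0.78, adjusted p = 0.13). Slc5a3 shares 159 exonic bases with Mrps6 on the same strand, and Mrps6 had -0.22 in heart (adjusted p = 0.51).

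Per length of exon, Slc38a2 and Slc3a2 were the 2 highest of the 91 genes in every group. Slc1a5, outside the 91, averaged 30.0 CPM per kb for bone, 37.0 for muscle, 38.2 for skin and 33.5 for heart, against 21.6 in spleen. Slc3a2 led in muscle at 54.5 ± 4.33 CPM per kb, in skin at 66.9 ± 2.35 and in heart at 61.5 ± 22.3 (SD, n = 3), where Slc38a2 came next at 37.8 ± 3.58, 35.0 ± 3.70 and 40.0 ± 5.34 CPM per kb. In bone Slc38a2 stood at 36.9 ± 4.36 and Slc3a2 at 31 ± 2.89 CPM per kb, and in spleen Slc38a2 at 30.5 ± 8.93 and Slc3a2 at 24.1 ± 4.15 CPM per kb (SD, n = 6). The gap between them was within the sum of their SDs in bone, heart and spleen. Among the 91 Slc2a3 came next in bone (22.4 ± 1.33 CPM per kb) and spleen (15.5 ± 4.48), Slc16a6 in muscle (19.6 ± 1.31) and heart (20.2 ± 5.37), and Slc2a1 in skin (27.2 ± 1.69). In muscle Slc2a1 was level with Slc16a6 within the SD, at 19.5 ± 0.237 CPM per kb. The place of Slc16a6 is uncertain in any case, as it shares exonic bases with Amz2. Slc16a3 was at 8.33 CPM per kb for bone, 9.98 for muscle, 19.5 for skin and 8.62 for heart, against 1.67 in spleen. These values divide by all exons of a gene, and the isoforms in use were not measured.

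**Figure D3:**
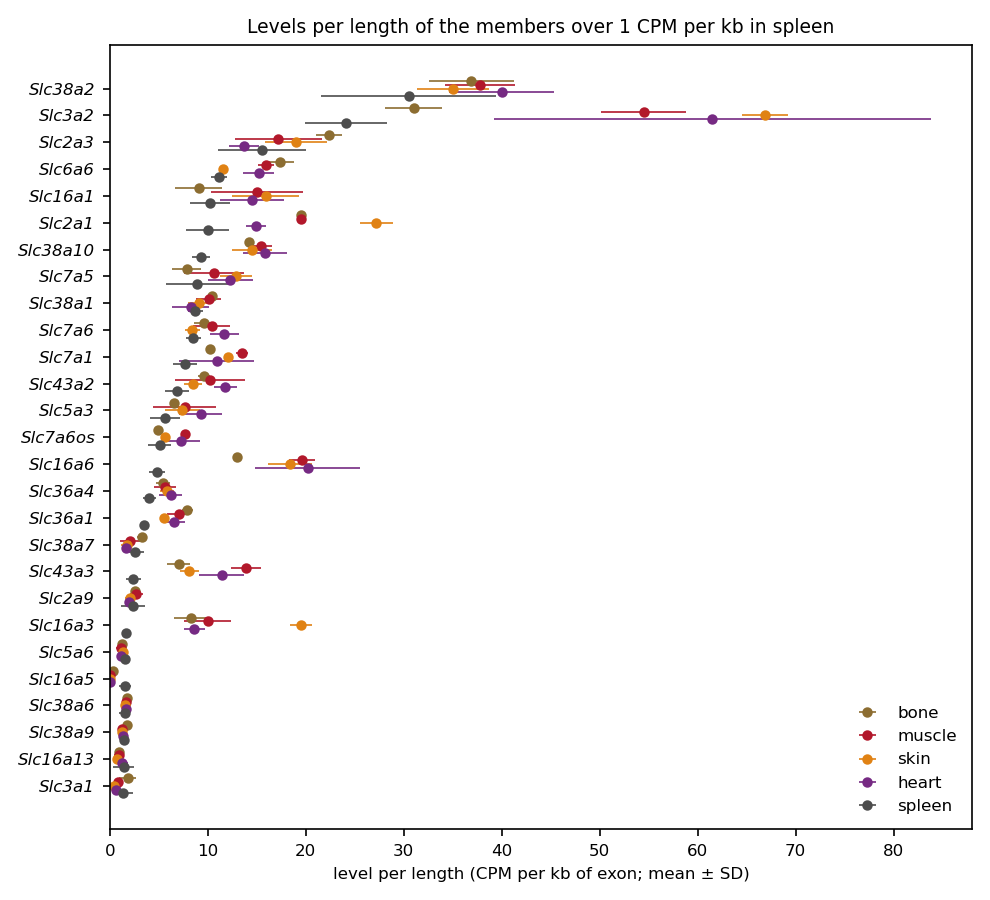
Mean level per length (x axis, CPM per kb of exon, ± SD) of carriers over 1 CPM per kb in spleen, one row per gene, in bone, muscle, skin, heart and spleen. Slc38a2 and Slc3a2 lie at the top, and Slc3a2 reaches 66.9 CPM per kb in skin, against 24.1 in spleen.

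Tissues were also set against each other, which adds the difference between the spleen styles where skin meets bone or muscle. Against bone, 4 of 37 carriers changed in muscle (4.86% of all genes) and 6 of 37 in skin (8.11%), and 4 of 39 in heart (6.68%). Heart against skin gave 2 of 39 (2.38%). Skin against muscle gave 0 of 37 (1.31%) and heart against muscle 0 of 39 (0.452%) in edgeR, with 6 and 3 at an unadjusted p under 0.05, and DESeq2 called 4 and 0. Single libraries moved these counts. Without bone replicate b 1 was called in muscle, 3 in skin and 1 in heart against bone. Heart against bone gave 2 without bone replicate 1 or c and 1 without heart replicate 2, skin against bone 3 without skin replicate 2 or spleen replicate 2 and 2 without spleen replicate 5, and muscle against bone 2 without muscle replicate 2 and 7 without spleen replicate 3. Skin against muscle gave 2 without muscle replicate 1 and 1 without spleen replicate 3, 4 or 6. Heart against skin gave 1 without any single heart or skin library or spleen replicate 4.

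Slc3a2 was higher than in bone in muscle (log2 0.82 ± 0.14, adjusted p = 0.0016), skin (1.34 ± 0.20, adjusted p = 2.2e-04) and heart (0.96 ± 0.21, adjusted p = 0.0085). The heart value fell short without heart replicate 2 (0.87, adjusted p = 0.064). Slc16a3 was higher in skin than in bone (1.43 ± 0.33, adjusted p = 0.0096) and lower in heart than in skin (-1.21 ± 0.26, adjusted p = 0.0098), with no overlap between libraries, and both held under every alternative.

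Slc43a3 was higher than in bone in muscle (0.99 ± 0.22, edgeR adjusted p = 0.012) and heart (0.83 ± 0.22, adjusted p = 0.027). Without bone replicate b these were 0.85 (adjusted p = 0.080) and 0.70 (adjusted p = 0.13). The heart call was also lost without bone replicate c (0.88, adjusted p = 0.063) or heart replicate 2 (0.78, 0.10) or 3 (0.82, 0.067). With no naming style in the model it was lost too (0.71, adjusted p = 0.078). The remaining calls, of Slc16a6, Slc16a5, Slc38a2, Slc2a9, Slc6a6, Slc2a3 and Slc2a1, were each lost under 3 to 13 alternatives. Slc6a6, at 96.0 to 101 CPM in skin, against 134 to 155 CPM in bone, had the fewest of these (log2 -0.71 ± 0.17, adjusted p = 0.012) and was lost without spleen replicate 5 (-0.62, adjusted p = 0.050), while it held without any single skin or bone library.

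Genes that act next to the carriers moved as follows. Basigin (Bsg), the chaperone that brings Slc16a1 and Slc16a3 to the surface, averaged 84.3 CPM for bone, 107 for muscle, 132 for skin and 97.1 for heart, against 58.1 CPM in spleen, and rose in all 4 (log2 0.59, 0.94, 1.09 and 0.73, edgeR adjusted p of 0.0098, 7.7e-05, 1.0e-05 and 0.0026). Embigin (Emb), a related chaperone, rose further, at 378 to 446 CPM for bone, 370 to 498 for muscle, 788 to 845 for skin and 462 to 732 for heart, against 117 to 147 CPM in spleen (log2 1.58, 1.74, 2.73 and 2.20, adjusted p of 2.2e-08, 2.0e-09, 2.3e-12 and 2.8e-07). Txnip and Arrdc4, arrestins that take glucose carriers off the surface, both fell in muscle, skin and heart. Txnip had log2 -0.76 in muscle, -1.67 in skin and -1.38 in heart (adjusted p of 0.032, 7.3e-05 and 0.0027), and Arrdc4 -0.90, -1.79 and -0.88 (0.0069, 7.8e-06 and 0.0029). In bone neither passed (0.35 and -0.04). Arrdc3 rose in skin alone (1.09, adjusted p = 0.011), so that of these 5 genes 2 rose in bone, 2 rose and 2 fell in muscle and in heart, and 3 rose and 2 fell in skin. Of all genes tested 8.48%, 14.2%, 15% and 11.8% rose for bone, muscle, skin and heart, and 6.32%, 11.3%, 12.8% and 8.46% fell.

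Of 14 enzymes that act on the imported substrates, 11 were tested in the first table and 12 in heart. In bone 4 rose and 2 fell, in muscle 6 rose and 1 fell, in skin 4 rose and 1 fell, and in heart 5 rose and 1 fell. The share that rose was 36.4% for bone, 54.5% for muscle, 36.4% for skin and 41.7% for heart, beside 8.48%, 14.2%, 15% and 11.8% of all genes, and the share that fell was 18.2%, 9.09%, 9.09% and 8.33%, beside 6.32%, 11.3%, 12.8% and 8.46%. Hexokinase 2 (Hk2), which traps glucose in the cell, averaged 13.7 CPM for bone, 17.1 for muscle, 31.3 for skin and 17.4 for heart, against 6.80 CPM in spleen (log2 0.80, 1.12, 2.39 and 1.33, edgeR adjusted p of 0.026, 0.0013, 1.8e-07 and 0.0015). Ldha, the lactate dehydrogenase subunit that favours lactate, rose in all 4 (0.82, 1.23, 1.5 and 1.03), and Ldhb, the subunit that favours pyruvate, fell in all 4 (-1.09, -1.75, -1.0 and -1.11), with adjusted p of at most 0.0028 for both. Asns, which makes asparagine, rose in all 4, with 1.56 to 9.11 CPM for bone, 5.55 to 15.1 for muscle, 13.5 to 15.4 for skin and 7.91 to 20.7 for heart, against 0 to 3.29 CPM in spleen. The glutaminase Gls2 also passed in all 4, with 175 counts for bone, 202 for muscle, 68 for skin and 80 for heart, against 2 counts in spleen. Glutamine synthetase (Glul) rose in muscle (0.97, adjusted p = 0.0021) and heart (1.58, adjusted p = 2.2e-04), Phgdh, the entry to serine synthesis, in muscle (0.81, adjusted p = 0.029), and Bcat1, which starts the breakdown of branched-chain amino acids, fell in bone (-2.22, adjusted p = 0.016).

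Of 19 genes by which mTORC1 senses amino acids 17 were tested. In bone, muscle and heart 1 rose and 1 fell, and in skin 3 rose and 3 fell. These are 5.88% in each direction for bone, muscle and heart, below the share of all genes (8.48%, 14.2% and 11.8% higher and 6.32%, 11.3% and 8.46% lower). In skin they are 17.6% in each direction, near the 15% of all genes that rose and the 12.8% that fell. Fnip2, a partner of folliculin, rose in all 4 (log2 3.08, 3.16, 2.70 and 3.02, edgeR adjusted p of 1.3e-05, 5.4e-06, 2.1e-05 and 6.4e-04), at 10.3 to 32.4 CPM in the tissues, against 0.281 to 6.07 CPM in spleen. Sesn3, a sestrin that restrains mTORC1, fell in all 4 (-0.50, -0.85, -0.61 and -0.49, adjusted p of 0.025, 1.7e-04, 0.0038 and 0.043). In skin Fnip1 (0.46) and Lamtor5 (0.62) also rose, and Sesn1 (-1.03) and Rptor (-0.44) fell.

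The 3 regulators known to act on carrier genes differed among the tissues. Hif1a, the oxygen-regulated factor that drives Slc2a1 and Slc16a3, averaged 1037 CPM for bone, 1386 for muscle, 1778 for skin and 1228 for heart, against 435 CPM in spleen (log2 0.93, 1.35, 2.39 and 1.47, edgeR adjusted p of 0.0029, 4.1e-05, 2.3e-08 and 2.1e-04). Hif1a is regulated mainly as a protein, which was not measured. Myc, which drives amino acid carriers in activated T cells, fell in bone (-1.30, adjusted p = 2.4e-06), muscle (-1.13, adjusted p = 8.3e-06) and heart (-0.89, adjusted p = 0.0010), with -0.21 in skin (adjusted p = 0.35). Atf4, the factor of the amino acid response, rose in skin (1.0, adjusted p = 1.2e-05) and heart (0.72, adjusted p = 0.0069), with 0.09 in bone and 0.30 in muscle.

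**Figure D4:**
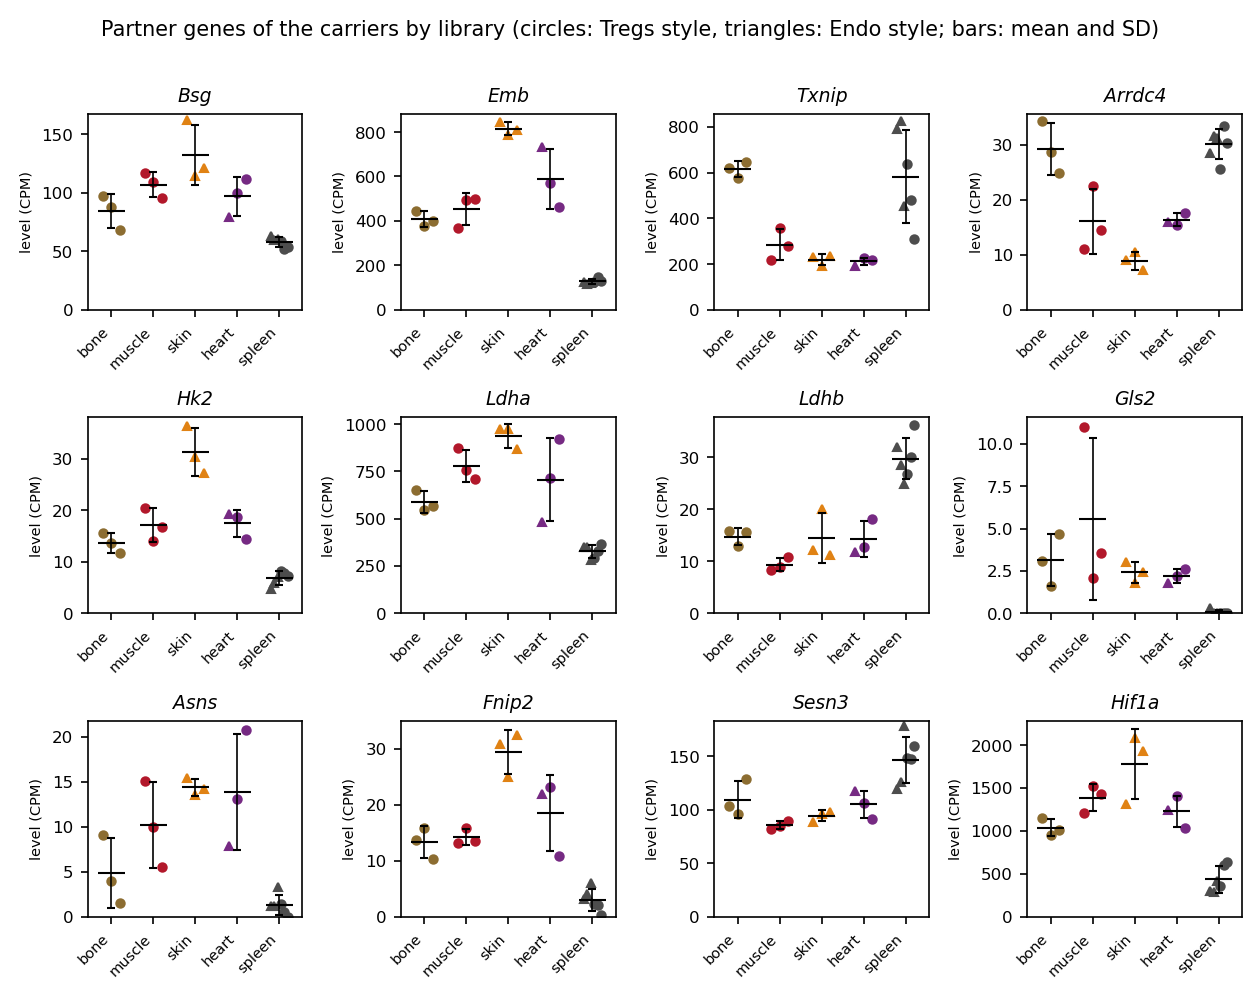
Level in CPM (y axes, linear, from 0) of 12 genes that act next to the carriers in each library of bone, muscle, skin, heart and spleen; points are libraries, circles for the Tregs and triangles for the Endo naming style, and bars give mean and SD. Emb lies at 370 to 845 CPM in the tissues, above the highest spleen library at 147 CPM, whereas every tissue library of Ldhb lies below the lowest spleen library at 24.9 CPM.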

How the data were processed

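The deposited tables hold counts of reads per gene made by the authors: per the submitters' processing notes reads were aligned to GRCm38 with STAR and counted with featureCounts, and limma is named, all without versions. Per the labels' protocols, RNA was purified with the RNeasy Plus Micro kit and 1 ng went into Ovation Solo libraries. How strand and multi-mapping reads were handled, and with which annotation, is not given in the sources used here.

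All 91 genes were matched to GENCODE M21 for positions and exon lengths. Counts were filtered with filterByExpr, scaled by TMM and tested in edgeR 4.0.16 with its quasi-likelihood F test, robust option (R 4.3.3, limma 3.58.1), with group and naming style in the model and Benjamini-Hochberg adjustment over all genes tested at FDR 0.05. Bone, muscle, skin and spleen (15 libraries) were fitted together, heart with spleen (9), and heart against the other tissues with all 18. Levels are CPM from TMM-scaled library sizes over the 18 libraries. SE is the log2 fold change over the root of F. The fit was tested on simulated data. DESeq2 1.42.0, other filters and scalings, and leaving out each library were alternatives. Bone libraries b and c have no replicate number, since their column names gave only the tissue. Replicates of a group differed by 10.9 to 157 times counting error (chi-square per degree of freedom, 27 pairs). The highest values, 116 to 157, were those of spleen replicates 1 and 2 against 4 to 6. Spleen replicate 3 differed by 64.7 and 50.5 from replicates 1 and 2 of its own style. From replicates 4 to 6 it differed by 43.3, 37.8 and 45.5, so that the naming style does not follow the widest split among spleen libraries. Leaving out spleen replicates 1 and 2 together was also an alternative. P-values measure the spread between these libraries.

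Genes were named by rule: 17 fixed carriers, Slc1a5 among them, and any carrier past FDR 0.05 against spleen. Of those with a mean log2 CPM under 1, Slc36a3 and Slc16a5 are described as well, chosen after their values were seen. The carriers, the other gene lists and the motifs were chosen with earlier results of these data known. Sequences are from RefSeq.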

Additional observations from a re-analysis of the deposited data

Results flagged for a closer look

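One of 23 named carriers had a spleen library far from the other 5: Slc1a4 stood at 3.23 CPM in spleen replicate 5, while the other spleen libraries began at 0.422 CPM. About 1 in 20 such groups is picked out this way by chance.

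The effect on 10 carriers differed between tissues by direct tests in edgeR, as log2 fold changes. In muscle against bone these were Slc16a6 at 0.59 (adjusted p = 0.028), Slc16a5 at -5.22 (0.023), Slc3a2 at 0.82 (0.0016) and Slc43a3 at 0.99 (0.012). In skin against bone they were Slc16a3 at 1.43 (0.0096), Slc38a2 at 0.65 (0.042), Slc3a2 at 1.34 (2.2e-04), Slc2a9 at -1.48 (0.044), Slc6a6 at -0.71 (0.012) and Slc2a3 at -0.85 (0.047). In heart against bone they were Slc16a6 at 0.64 (0.045), Slc3a2 at 0.96 (0.0085), Slc43a3 at 0.83 (0.027) and Slc2a3 at -0.80 (0.027). In heart against skin they were Slc16a3 at -1.21 (0.0098) and Slc2a1 at -0.75 (0.039). The fitted fold of Slc16a5 rests on 1 count in muscle, against 99 in bone, and its call was lost without bone replicate b (-4.22, adjusted p = 0.11). In skin against bone the calls of Slc2a9 and Slc2a3 were each lost under 13 alternatives, and that of Slc38a2 under 11. With no naming style in the model Slc38a2 had -0.08 there (edgeR adjusted p = 0.85). Only the calls of Slc16a3, and those of Slc3a2 in muscle and skin against bone, held under every alternative.

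Rows of the same families with another deposited biotype also differed from spleen and belong to no count above. Slc1a5, another of them, is described with the neutral exchangers. Slc6a8, the creatine carrier, deposited as nonsense_mediated_decay, had 7.89 to 10.5 CPM in bone, 5.14 to 11.4 CPM in muscle, 6.76 to 10.8 CPM in skin and 7.71 to 11.6 CPM in heart, against 0.520 to 3.62 CPM in spleen. Its log2 fold change was 2.26 for bone, 2.10 for muscle, 2.74 for skin and 2.65 for heart (adjusted p of 0.0044, 0.0049, 9.5e-04 and 0.0023). Slc2a8, an intracellular hexose carrier, rose in muscle (1.43, adjusted p = 0.013) and skin (1.73, adjusted p = 0.0038). Slc36a3os, an RNA antisense to Slc36a3, rose in muscle (1.09, adjusted p = 0.033) and skin (1.90, adjusted p = 6.5e-04). Slc7a10, a carrier of small neutral amino acids that also pairs with Slc3a2, was the one such row that fell, in bone (-3.60, adjusted p = 0.021) and heart (-2.61, adjusted p = 0.015), with -2.68 (adjusted p = 0.055) in muscle and -1.44 (adjusted p = 0.30) in skin. It had 0 to 0.758 CPM in bone and 0.659 to 0.865 CPM in heart, against 1.16 to 8.98 CPM in spleen.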

How the results depend on the processing

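Of 111 pairs of a named gene and a comparison, 67 passed the test; 39 of these kept their call under every alternative run and 28 lost it under at least 1, and 16 others gained one. With the replicate number as a block in place of the naming style, the direction turned for Slc38a2 in muscle against spleen (0.70, adjusted p = 0.0027) and Slc2a9 in muscle against spleen (-0.30, adjusted p = 0.46), and with no naming style it turned for Slc38a2 in skin against bone (-0.08). The cause was not tested. The block left 7 carriers higher in heart, 2 lower in skin and 2 changed in skin against muscle. Libraries with the same replicate number correlated at -0.16 to 0.20 over 18 pairs, 1 of them over 0.1. For muscle and part of heart, these replicate numbers differ from the numbers in the library names. Spleen entered the check only with its Endo libraries. The check therefore cannot show whether libraries were paired, and pairing by the numbers in the names was not tested. Bone has only 1 numbered library and was left out of the block. DESeq2 called 7 in muscle against bone, 7 in heart against bone, 4 in skin against muscle and 2 lower in muscle. No filter gave 2 lower in heart and 2 in skin against muscle, no naming style 2 in skin against muscle and 2 in heart against bone, libraries of one style 2 lower in skin and 1 in heart against skin, one fit to 18 libraries 2 lower in skin, and leaving out spleen libraries 1 and 2 gave 2 in skin against bone. Leaving out single libraries gave 8 to 11 higher for bone, 11 to 15 for muscle, 8 to 11 for skin and 9 to 13 for heart, with 0, 1, 1 to 2 and 1 lower. Between tissues it gave 1 to 7 in muscle against bone, 2 to 7 in skin against bone, 0 to 2 in skin against muscle, 1 to 5 in heart against bone, 0 in heart against muscle and 1 to 2 in heart against skin. Other scalings moved the median of all genes by at most 0.042 in size. A fit within one style cannot compare skin with bone or muscle. Depth limits the 52 carriers with few or no counts, for which no change was detectable.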
